A study of Mus musculus with 12 samples.

Results

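Scavenger receptors are surface proteins with which macrophages take up modified lipoproteins, dying cells, bacteria and haemoglobin complexes. As a family they share little structure and are grouped together by what they bind. MARCO and MSR1 are trimeric class A receptors with a collagen-like stalk, and CD36 and SCARB1 are class B receptors that bind fatty acids and lipoproteins. OLR1, also called LOX-1, is a lectin-like receptor for oxidized LDL. STAB1 takes up modified proteins and matrix debris, and CD163 takes up haemoglobin bound to haptoglobin. In macrophages they are known both as uptake routes in foam cell formation and as markers of activation states.

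The 7 genes *Marco*, *Cd36*, *Msr1*, *Scarb1*, *Olr1*, *Stab1* and *Cd163* were taken by name, through the accession that the array gives for each probe. They had 10 probes among 41174, and stood for 7 of 32301 genes and unnamed transcripts. *Msr1* had 3 probes and *Stab1* had 2, and the brightest probe of each gene is reported unless another is named. RNA came from bone marrow-derived macrophages (BMDMs) of C57BL/6 mice aged 8 weeks, either wild type (WT) or *Keap1* flox/flox::*LysM*-Cre (KpCKO). KEAP1 marks the transcription factor Nrf2 for degradation, and Cre driven from the lysozyme M locus deletes *Keap1* in myeloid cells. Bone marrow cells of both genotypes were grown with M-CSF for 7 days, and M-CSF was withdrawn before stimulation. The cells were left untreated (Con), given LPS and IFNg for 6 h (M1), or given IL-4 for 6 h (M2). The 12 Cy3-labelled arrays fell into 6 groups of 2, since each of 2 independent cultures took its cells from 1 mouse of each genotype. The mice were male in culture 1 and those of culture 2 were female. Sex and culture therefore cannot be told apart.

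The log2 difference between KpCKO and WT was -1.46, -1.71 and -1.81 for *Keap1* in Con, M1 and M2, and 3.23, 3.50 and 3.52 for *Nqo1*, an Nrf2 target, with limma adjusted p of 0.0336 or lower for *Keap1* and 7.17e-05 or lower for *Nqo1*. All 5 macrophage markers with a matched probe were well above background on every array. Of the marker lists for other cells, *Elane*, *Ms4a1*, *Cd3d* and *Lyve1* were at background in all 6 groups, while 5 to 7 of the 8 neutrophil markers were well above background on both arrays of each group. The summed level of the neutrophil markers (linear, with the 75th percentile as 1) was 3.15 to 16.6 over the 12 arrays and overlapped between genotypes under every stimulus. The 4 arrays of each stimulus lay on 1 slide, so genotypes were compared within a slide, while stimulus and slide cannot be told apart. The 75th percentile of the signal was 548 to 906 intensity units on the M1 arrays and 966 to 1166 on the others.

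Levels are given as log2 of the processed signal relative to the 75th percentile of the array, so that 0 is the signal at that percentile. Levels of different probes are not compared with each other. A gene was called where limma, fitted over all genes with culture as a block, gave a Benjamini-Hochberg adjusted p under 0.05. The spread of a gene was estimated over all 12 arrays together, so its error is not the scatter of the compared groups alone. With 2 arrays against 2, an exact permutation test cannot go below p = 0.333, so none is given. All 7 receptors passed the filter on dim probes. Their signals were well above background on all 12 arrays, except that *Cd163* was not on replicate 1 of either M1 group. In RNA of whole cultures, fewer cells of a type and less RNA per cell cannot be told apart.

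The promoters of *Cd36*, *Marco* and *Olr1* are shown because these genes had the largest called differences between genotypes or after stimulation. Each line gives the 250 bases before the start site, 5′ to 3′ on the strand of the gene, from RefSeq on GRCm38.p6. The windows are chr5:17835897-17836146 for *Cd36*, chr1:120505025-120505274 for *Marco* and chr6:129507166-129507415 for *Olr1*, all on the minus strand. Capitals mark a match to TGAGTCA, the AP-1 motif.
Cd36: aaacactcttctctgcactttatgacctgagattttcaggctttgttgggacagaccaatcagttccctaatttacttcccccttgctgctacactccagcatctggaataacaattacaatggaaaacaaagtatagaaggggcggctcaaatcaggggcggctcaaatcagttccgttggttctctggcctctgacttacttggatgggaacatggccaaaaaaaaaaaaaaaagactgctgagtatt
Marco: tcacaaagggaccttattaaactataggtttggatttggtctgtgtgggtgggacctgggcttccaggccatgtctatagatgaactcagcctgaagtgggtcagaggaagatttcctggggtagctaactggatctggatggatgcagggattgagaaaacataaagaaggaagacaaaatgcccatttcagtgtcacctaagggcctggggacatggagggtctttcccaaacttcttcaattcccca
Olr1: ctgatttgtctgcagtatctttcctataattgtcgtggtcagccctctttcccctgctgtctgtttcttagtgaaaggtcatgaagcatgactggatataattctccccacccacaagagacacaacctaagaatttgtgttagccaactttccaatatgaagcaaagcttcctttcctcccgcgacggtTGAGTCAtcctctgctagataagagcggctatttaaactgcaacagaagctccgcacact

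The windows searched ran from 250 bases before to 50 bases after the start site, on both strands, and were at hand for 5 of the 7 genes, namely *Marco*, *Cd36*, *Olr1*, *Stab1* and *Cd163*. The antioxidant responsive element to which Nrf2 binds with small Maf proteins was searched as TGAGNNNGC and as TGACNNNGC. Neither was found in the 5 windows, while 27.8% of 32851 mouse promoters of the same length held at least 1 of them. TGAGTCA, whose reverse complement is TGACTCA, was found in the *Olr1* window alone, from base -60 to base -54 before the start site, and in 5.20% of all promoters. These letters say nothing about sites outside the windows.

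**Figure D1:**
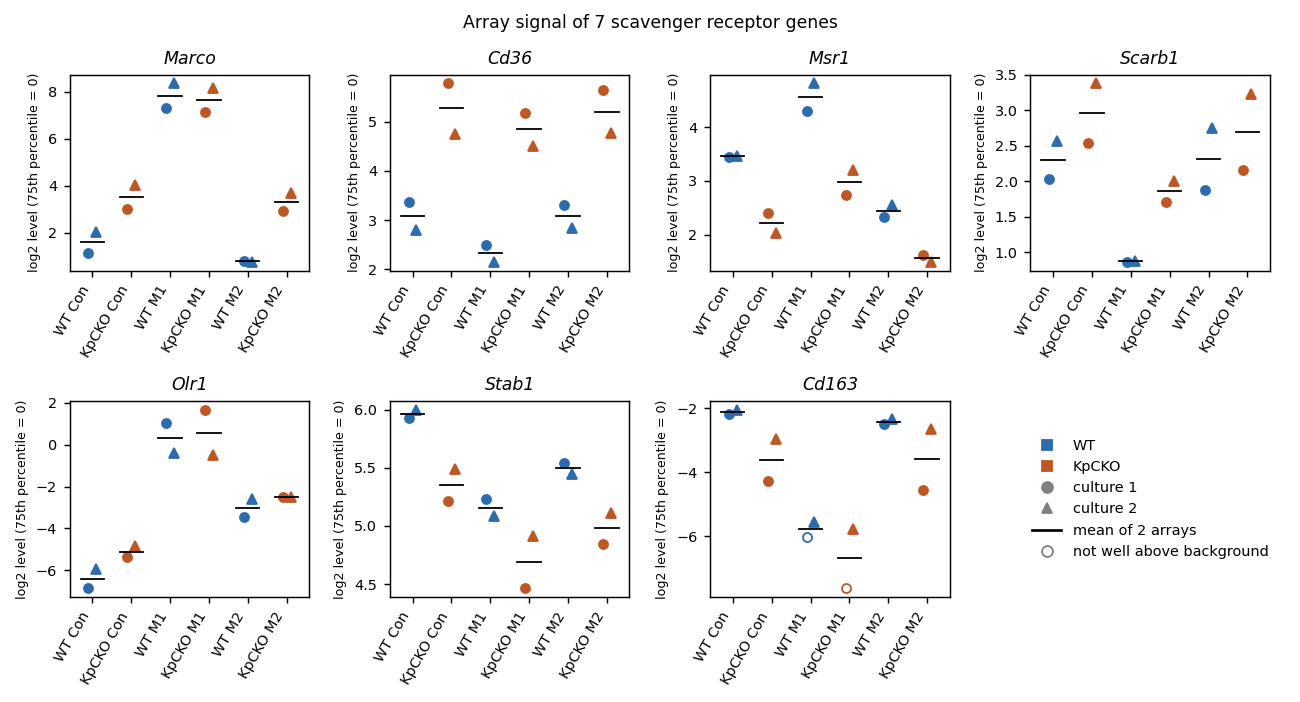
Log2 level of each receptor on the 12 arrays, relative to the 75th percentile of the array (y axis, on its own range in each panel), by genotype and stimulus (x axis). Points are single arrays, lines are means of 2 arrays, and open points are not well above background; *Cd36* is higher in KpCKO under every stimulus, while *Marco* is highest in both M1 groups.

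Before stimulation, the mean levels of *Cd36* and *Marco* were higher and that of *Msr1* lower in KpCKO than in WT cells. In Con, 3 of the 7 receptors were called, *Cd36* and *Marco* higher and *Msr1* lower in KpCKO, against 2.22% of all genes tested. None of these 3 was called in Con without the culture block. The *Marco* and *Msr1* calls also depended on each single array, as given below. In M1 the called receptors were *Cd36* and *Scarb1*, higher, and *Msr1*, lower, where 16% of all genes were called. In M2 they were *Cd36* and *Marco*, both higher, against 1.93% of all genes. By the brightest probe of each gene, *Cd36* alone was called under all 3 conditions. By the study's fold rule, a change over 2-fold the same way in both cultures, *Cd36*, *Marco*, *Olr1* and *Msr1* passed in Con (2.52% of all genes), *Cd36* and *Msr1* in M1 (5%), and *Cd36* and *Marco* in M2 (2.31%).

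*Cd36*, the fatty acid translocase that also takes up oxidized LDL, stood at 3.37 in culture 1 and 2.80 in culture 2 of WT Con, and at 5.78 and 4.76 in KpCKO Con. In M1 it stood at 2.49 and 2.15 in WT and at 5.18 and 4.51 in KpCKO. In M2 it stood at 3.31 and 2.84 in WT and at 5.64 and 4.77 in KpCKO. Every KpCKO array was above every WT array, over all stimuli. Its level was 4.54-fold higher in KpCKO Con (log2 difference 2.18 ± 0.17, SE; limma adjusted p = 0.00258), 5.76-fold higher in M1 (2.53 ± 0.17, adjusted p = 0.000728) and 4.37-fold higher in M2 (2.13 ± 0.17, adjusted p = 0.0032). The genotype difference in M1 exceeded that in Con by 0.34, with a 95% interval from -0.24 to 0.92, and no change of the difference between stimuli was called. Without the culture block the adjusted p was 0.0822 in Con and 0.0967 in M2, with the same log2 differences.

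*Scarb1*, the receptor for high-density lipoprotein, had the same order of genotypes in each culture, with smaller differences. In M1 it stood at 0.87 on both WT arrays and at 1.70 and 2.01 in KpCKO, a 1.98-fold higher level (log2 difference 0.99 ± 0.25, adjusted p = 0.0438). In Con it stood at 2.03 and 2.56 in WT and at 2.53 and 3.38 in KpCKO, and these ranges overlapped between cultures. The log2 difference was 0.66 ± 0.25 in Con (adjusted p = 0.31) and 0.39 ± 0.25 in M2 (adjusted p = 0.574), neither of them called. The M1 call was lost in 3 of the 4 fits without an array of those groups: without WT M1 replicate 2 the log2 difference was 0.63 (adjusted p = 0.192), without KpCKO M1 replicate 1 it was 0.81 (0.208) and without KpCKO M1 replicate 2 it was 1.16 (0.0708). It was also lost under quantile normalization (adjusted p = 0.0507), normexp background correction (0.0674), no filter on dim probes (0.0667) and no culture block (0.226).

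*Marco*, a receptor for bacteria and inhaled particles, differed between genotypes in Con and M2, with no difference called in M1. It stood at 1.14 and 2.04 in WT Con and at 3.02 and 4.05 in KpCKO Con, so that the groups did not overlap. In M2 it stood at 0.77 and 0.75 in WT and at 2.92 and 3.71 in KpCKO. In M1 it stood at 7.31 and 8.36 in WT and at 7.16 and 8.17 in KpCKO, with KpCKO slightly below WT in each culture. The level was 3.85-fold higher in KpCKO Con (log2 difference 1.94 ± 0.26, adjusted p = 0.0158) and 5.86-fold higher in KpCKO M2 (2.55 ± 0.26, adjusted p = 0.00648). In M1 the difference was -0.17 ± 0.26 (adjusted p = 0.677), with a 95% interval from -0.79 to 0.45, and it was 0.09 under quantile normalization. Before scaling, the M1 signal was 119789 and 180332 units in WT and 129686 and 226038 in KpCKO, higher in KpCKO in each culture. No *Marco* spot was marked as saturated, and its median signal on the M1 arrays was 109343 to 204943 units where the highest spot of those arrays read 620877 to 739458.

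The genotype difference of *Marco* was smaller in M1 than in Con (log2 difference -2.11 ± 0.37; -2.02 in culture 1 and -2.21 in culture 2), which was not called (adjusted p = 0.106). It was also smaller in M1 than in M2 (-2.72 ± 0.37; -2.29 and -3.15 by culture), and this too was not called (adjusted p = 0.0664), where 0.0716% and 0.0984% of all genes were called in these 2 comparisons. The latter passed without WT M1 replicate 1 (-2.88, adjusted p = 0.0351), where 568 genes were called in place of 22, and without WT M2 replicate 1 (-3.21, 0.0264), where 3 were. The Con call was lost in each of the 4 fits without an array of those groups (1.80 to 2.09, adjusted p = 0.0994 to 0.136). The M2 call was lost without KpCKO M2 replicate 1 (2.54, 0.0552) or replicate 2 (2.56, 0.054). Without the culture block the adjusted p was 0.23 in Con and 0.107 in M2.

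*Msr1*, the class A receptor for acetylated and oxidized LDL, went the opposite way from *Marco* and *Cd36*. It stood at 3.45 and 3.47 in WT Con and at 2.40 and 2.03 in KpCKO Con. In M1 it stood at 4.30 and 4.81 in WT and at 2.74 and 3.21 in KpCKO. In M2 it stood at 2.33 and 2.56 in WT and at 1.62 and 1.50 in KpCKO. WT and KpCKO did not overlap under any stimulus. *Msr1* was 2.37-fold lower in KpCKO Con (log2 difference -1.24 ± 0.22, adjusted p = 0.0437) and 2.99-fold lower in KpCKO M1 (-1.58 ± 0.22, adjusted p = 0.00796). Under quantile normalization its M1 means were closer, at 14.05 in WT and 12.73 in KpCKO. The M2 difference of -0.88 ± 0.22 was not called (adjusted p = 0.131).

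The other probes of *Msr1* gave log2 differences of -1.01 and -1.15 in Con, -0.98 and -1.36 in M1 and -0.84 and -1.002 in M2, all lower in KpCKO. Both passed in M1 (adjusted p = 0.0204 and 0.0182) and neither passed in Con (0.0504 and 0.082). The Con call was lost without each of the 4 arrays in turn (-1.54 to -0.95, adjusted p = 0.0738 to 0.273), with normexp (0.0531), with no filter (0.0856) and without the culture block (0.0612). The M1 call was lost without KpCKO M1 replicate 1 (-1.37, adjusted p = 0.0557).

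*Stab1*, an endocytic receptor of alternatively activated macrophages and of sinusoidal endothelium, stood at 5.93 and 6.00 in WT Con and at 5.21 and 5.49 in KpCKO Con. In M1 it stood at 5.23 and 5.08 in WT and at 4.47 and 4.91 in KpCKO, and in M2 at 5.54 and 5.45 in WT and at 4.85 and 5.11 in KpCKO. The groups did not overlap, but no difference was called for the brightest probe: -0.61 ± 0.16 in Con (adjusted p = 0.135), -0.47 ± 0.16 in M1 (0.0944) and -0.52 ± 0.16 in M2 (0.213). Under quantile normalization its M1 difference was -0.24, and the M1 levels overlapped (14.65 and 14.50 in WT, 14.13 and 14.54 in KpCKO). The dimmer probe gave nearly the same sizes with a smaller error and was called in all 3 conditions, at -0.57 ± 0.09 in Con (adjusted p = 0.0245), -0.53 ± 0.09 in M1 (0.0119) and -0.50 ± 0.09 in M2 (0.0404).

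**Figure D2:**
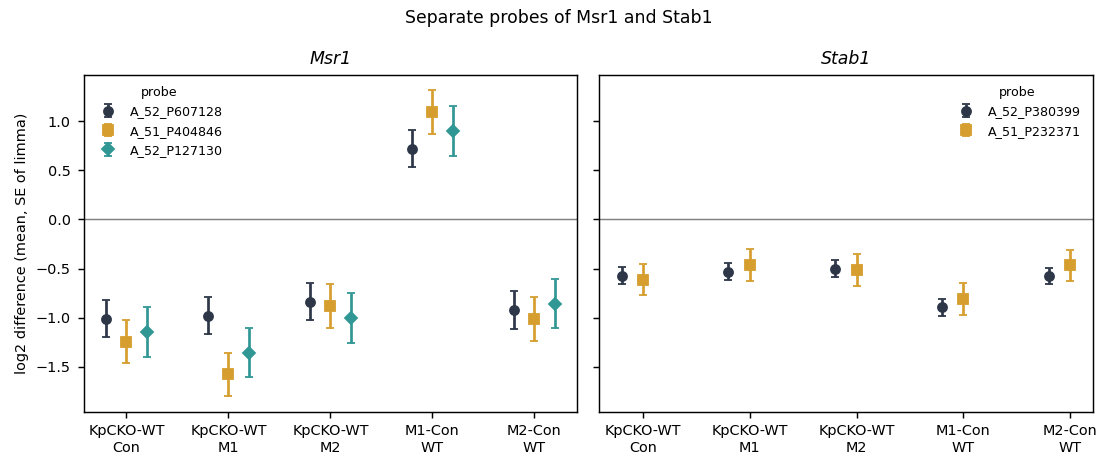
Log2 difference (y axis, mean ± SE from limma, n = 2 cultures) of the 3 *Msr1* probes and the 2 *Stab1* probes, in 5 comparisons (x axis: KpCKO less WT in Con, M1 and M2, then M1 and M2 less Con in WT). All probes of a gene lie on the same side of 0 in every comparison shown, and the *Stab1* probe with the smaller error bars is the dimmer one.

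*Cd163* had lower means in KpCKO, with a difference that came mainly from culture 1. It stood at -2.18 and -2.05 in WT Con and at -4.27 and -2.95 in KpCKO Con. In M2 it stood at -2.51 and -2.34 in WT and at -4.56 and -2.65 in KpCKO. The log2 difference in culture 1 was -2.09 in Con and -2.05 in M2, and in culture 2 it was -0.90 and -0.31. None of the genotype differences was called (-1.50 ± 0.50 in Con, adjusted p = 0.235; -0.90 ± 0.50 in M1, 0.244; -1.18 ± 0.50 in M2, 0.354). The unadjusted p in Con was 0.0204.

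*Olr1* stood at -6.84 and -5.95 in WT Con and at -5.37 and -4.84 in KpCKO Con, with signals of 10.0 to 35.0 intensity units on these 4 arrays. Its log2 difference in Con was 1.29 ± 0.78, over 2-fold in both cultures but not called (adjusted p = 0.565). In M1 and M2 the difference was 0.28 and 0.53 with the same error, and neither was called (adjusted p = 0.829 and 0.844). The 95% interval in Con ran from -0.56 to 3.13, with an error pooled over all 6 groups. By culture the difference in Con was 1.46 and 1.11. The SD of the 2 arrays was 0.63 in WT Con and 0.38 in KpCKO Con, against 1.01 in WT M1 and 1.54 in KpCKO M1.

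Markers of other cells moved with genotype too. The summed level of the 5 endothelial markers was 1.18 to 1.48 in WT Con and 0.416 to 0.500 in KpCKO Con, 6.82 to 11.8 and 0.905 to 2.85 in M1, and 0.952 to 1.11 and 0.589 to 0.677 in M2. Within that list *Lyve1* was at background in every group, and *Kdr* made up most of the sum on the M1 arrays. *Kdr* was the only 1 of the 4 tested that was called between genotypes (-2.71 in M1, limma adjusted p = 0.0327). Its mean was also lower in KpCKO Con (-2.71, against -0.002 in WT) and in KpCKO M2 (-4.53, against -2.53 in WT), neither of them called. The summed level of the 6 erythroid and megakaryocyte markers was 48.5 to 54.3 in WT Con and 18.8 to 20.6 in KpCKO Con, 37.7 to 43.0 and 22.0 to 29.6 in M1, and 35.7 to 38.1 and 17.2 to 20.9 in M2. That sum was mostly *Pf4*, which was lower in KpCKO by limma in all 3 conditions (-1.39, -0.66 and -0.97; adjusted p = 0.0132, 0.0464 and 0.0482). The median log2 difference of the 5 tested genes of the list was -0.01 in Con. It was 0.17 in M1, where 4 of the 5 lay above 0, and 0.15 in M2, where 3 did. The summed level of the 5 macrophage markers was 450 to 496 in WT Con and 341 to 393 in KpCKO Con, 538 to 596 and 443 to 468 in M1, and 450 to 498 and 389 to 426 in M2. By limma 0 of these 5 were called in Con, 0 in M2, and 2 were called lower in M1. Under quantile normalization the M1 means in WT and KpCKO were 17.6 and 17.5 for *Adgre1*, and 16.1 and 16.5 for *Csf1r*. The other markers of this list were lower in KpCKO M1. *Lyz2*, on the macrophage list, is the lysozyme M gene, whose locus carries Cre in KpCKO. Its mean level was 7.00 in WT Con and 6.04 in KpCKO Con, 6.36 and 5.86 in M1, and 6.37 and 5.69 in M2. The part of that allele in the macrophage sum was not tested. The endothelial, erythroid and megakaryocyte, and macrophage sums were lower in KpCKO, as were the means of *Msr1*, *Stab1* and *Cd163*. The part of these cells in those differences was not tested.

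**Figure D3:**
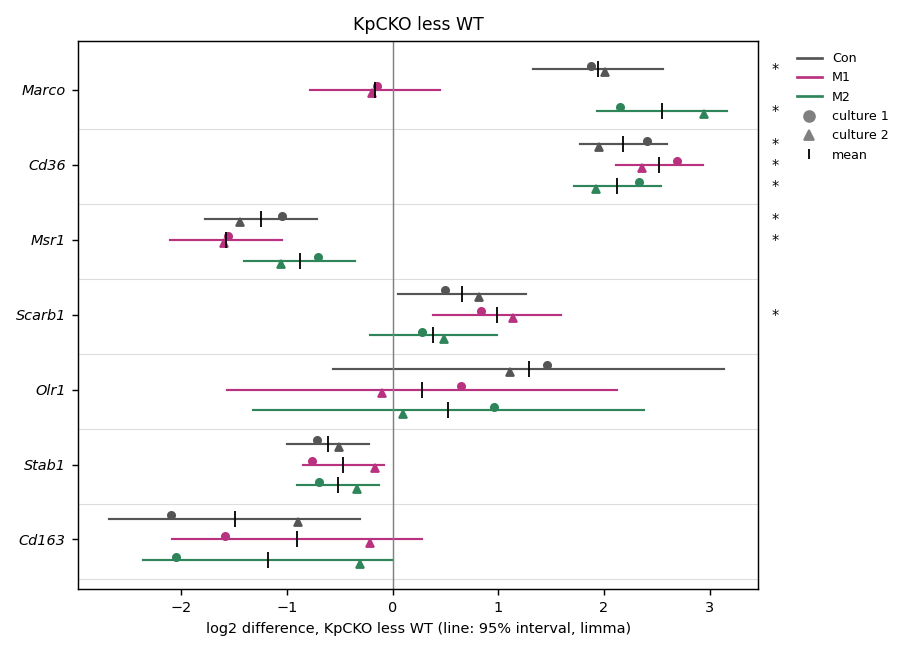
Log2 difference between KpCKO and WT (x axis) of each receptor (y axis) in Con, M1 and M2. Bars mark the mean, lines the 95% interval from limma, circles culture 1 and triangles culture 2, and an asterisk at the right marks an adjusted p under 0.05; *Cd36* lies to the right of 0 in all conditions, and *Marco* lies near 0 in M1 alone.

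All 7 receptors were called between M1 and Con in WT cells, in a comparison where 63.2% of all genes were called. Stimulus and slide coincide here, and *Msr1* was not called under quantile normalization, as given below. *Marco*, *Olr1* and *Msr1* rose, and *Cd163*, *Scarb1*, *Stab1* and *Cd36* fell. *Marco*, *Olr1*, *Cd163* and *Scarb1* changed over 2-fold in both cultures, as did 29.8% of all genes. The median log2 difference of all genes in this comparison was 0.13, which was -0.08 under quantile normalization and 0.40 with normexp, and every receptor's difference was larger in size than the median of its own setting. On the WT M1 arrays the summed endothelial markers were 6.82 to 11.8, against 1.18 to 1.48 in WT Con, and the 4 dendritic cell markers 1.39 to 2.31 against 0.302 to 0.400. The endothelial sum rose with *Kdr* (3.13, adjusted p = 0.00395), the only 1 of the 4 tested that was higher, and the median of the 4 was -0.25. Their part in the responses was not tested.

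*Olr1* rose from -6.84 and -5.95 in WT Con to 1.01 and -0.42 in WT M1. In KpCKO it rose from -5.37 and -4.84 to 1.66 and -0.52. The rise was 103-fold in WT (log2 difference 6.69 ± 0.78, adjusted p = 0.000324) and 51.2-fold in KpCKO (5.68 ± 0.78, adjusted p = 0.00103), and it was larger in culture 1 (7.85 in WT and 7.03 in KpCKO) than in culture 2 (5.53 and 4.32). With normexp, which raises the lowest signals, the log2 difference was 4.20 in WT and 4.16 in KpCKO. The 95% interval of the fold in WT ran from 28.7 to 371.

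*Marco* rose 76.0-fold in WT M1 (log2 difference 6.25 ± 0.26, adjusted p = 6.42e-06) and 17.5-fold in KpCKO M1 (4.13 ± 0.26, adjusted p = 4.44e-05). Both genotypes reached levels of 7.16 to 8.36, from different starting levels in Con. By culture the rise was 6.17 and 6.33 in WT and 4.15 and 4.12 in KpCKO. The difference between these responses is the value of -2.11 given above, with an adjusted p of 0.106.

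*Msr1* rose 2.14-fold in WT M1 (log2 difference 1.10 ± 0.22, adjusted p = 0.00437) and 1.70-fold in KpCKO M1 (0.76 ± 0.22, adjusted p = 0.026). Under quantile normalization the rise was 0.53 in WT (adjusted p = 0.0615) and 0.54 in KpCKO (0.066), and neither passed. The KpCKO call was also lost without KpCKO Con replicate 2 (0.46, adjusted p = 0.17) or KpCKO M1 replicate 2 (0.55, 0.16).

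*Cd163* fell from -2.18 and -2.05 in WT Con to -6.02 and -5.55 in WT M1, and from -4.27 and -2.95 in KpCKO Con to -7.61 and -5.77 in KpCKO M1. The signals in M1 were 4.64 to 14.4 intensity units, and 1 of the 2 arrays in each M1 group was well above background. The log2 difference was -3.67 ± 0.50 in WT (adjusted p = 0.000683) and -3.07 ± 0.50 in KpCKO (adjusted p = 0.00216). With normexp the differences were -1.44 and -0.84, both still called.

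*Scarb1* fell 2.69-fold in WT M1 (log2 difference -1.43 ± 0.25, adjusted p = 0.0024) and 2.14-fold in KpCKO M1 (-1.10 ± 0.25, adjusted p = 0.0103). *Stab1* fell 1.75-fold in WT (-0.81 ± 0.16, adjusted p = 0.00412) and 1.58-fold in KpCKO (-0.66 ± 0.16, adjusted p = 0.013). Under quantile normalization the log2 difference of *Stab1* was larger, at -1.58 in WT and -1.13 in KpCKO. *Cd36* fell 1.70-fold in WT (-0.76 ± 0.17, adjusted p = 0.00722), while its difference in KpCKO was -0.42 ± 0.17 and not called (adjusted p = 0.0825). In KpCKO M1 6 of the 7 receptors were thus called, 3 higher and 3 lower, where 50.2% of all genes were called, and *Marco*, *Olr1* and *Cd163* changed over 2-fold in both cultures, as did 21% of all genes. Calls were lost for *Cd36* in WT without WT Con replicate 2 (-0.71, adjusted p = 0.0505) and without the culture block (0.172), for *Scarb1* in KpCKO without KpCKO Con replicate 2 (-0.96, 0.0725) or KpCKO M1 replicate 2 (-0.92, 0.0724), and for *Stab1* in KpCKO without KpCKO Con replicate 2 (-0.58, 0.0851) or KpCKO M1 replicate 1 (-0.47, 0.079). *Cd36* in KpCKO was called without KpCKO Con replicate 2 (-0.64, 0.0424) and under quantile normalization (-0.89, 0.00412).

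**Figure D4:**
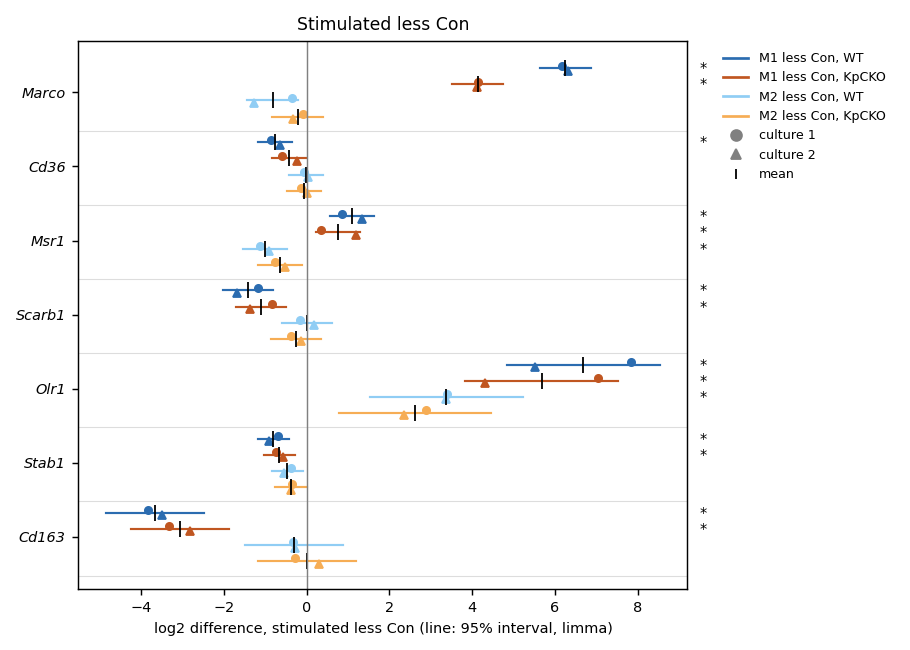
Log2 difference between stimulated and untreated cells (x axis) of each receptor (y axis), for M1 and M2 in WT and KpCKO. Bars mark the mean, lines the 95% interval from limma, circles culture 1 and triangles culture 2, and an asterisk at the right marks an adjusted p under 0.05; *Marco* and *Olr1* lie far to the right in M1, and in M2 *Olr1* lies farthest from 0.

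Fewer of the receptors were called between M2 and Con, where stimulus and slide again coincide. In WT M2 *Olr1* rose and *Msr1* fell, 2 of 7 where 16.8% of all genes were called, and in KpCKO M2 none of the 7 was called by limma, where 10.2% of all genes were called. At an unadjusted p under 0.05, 2 of the 7 passed in KpCKO M2. *Olr1* alone was over 2-fold higher in both cultures, in WT (6.79% of all genes) and in KpCKO (4.62%). *Olr1* stood at -3.45 and -2.58 in WT M2 and at -2.49 on both KpCKO M2 arrays, above both arrays of Con in each genotype. The rise was 10.4-fold in WT (log2 difference 3.38 ± 0.78, adjusted p = 0.0296), and in KpCKO the difference was 2.62 ± 0.78 (adjusted p = 0.0824). The WT call was lost in each of the 4 fits without an array of those groups (2.71 to 4.04, adjusted p = 0.0718 to 0.177), and with normexp the difference was 1.71 (0.163).

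*Msr1* fell 2.02-fold in WT M2 (log2 difference -1.01 ± 0.22, adjusted p = 0.0253), and its difference in KpCKO was -0.65 ± 0.22 (adjusted p = 0.117). The WT call was lost without each of the 4 arrays in turn (-1.08 to -0.95, adjusted p = 0.108 to 0.143). *Marco* differed by -0.82 ± 0.26 in WT M2 (adjusted p = 0.0748), by -0.37 in culture 1 and -1.28 in culture 2, and passed without WT M2 replicate 1 (-1.31, adjusted p = 0.013). *Cd36*, *Scarb1*, *Stab1* and *Cd163* differed by -0.47 to 0.01 in WT M2, and none of them was called. The dimmer *Stab1* probe fell in M2, with -0.58 in WT (adjusted p = 0.00738) and -0.50 in KpCKO (0.0173).

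For the receptors other than *Marco*, the genotype difference in the M1 response ran from -1.01 for *Olr1* to 0.59 for *Cd163*, with adjusted p of 0.512 to 0.775, and *Marco* was the only 1 of the 7 with an unadjusted p under 0.05. The genotype difference in the M2 response ran from -0.76 to 0.61 over all 7 receptors, each with an unadjusted p over 0.05 and none called by limma, where 0.00894% of all genes were called. The intervals were wide, from -3.62 at the lowest end to 2.27 at the highest in M1, and do not show that the responses were alike.

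Of 17 other scavenger receptors on a fixed list, 15 had a matched probe and 14 were tested, *Scara5* being at background throughout, while *Cd68* and *Clec7a* were not analysed here. In KpCKO, 1 of the 14 was higher and 2 were lower in Con, 2 higher and 1 lower in M1, and 2 higher and 1 lower in M2, where 2.22%, 16% and 1.93% of all genes were called. In M1 that share was near the one over all genes. The median difference of the list was 0.06, -0.25 and 0.03, against 0.00, -0.09 and 0.02 for all genes. *Colec12*, a class A receptor like *Msr1* and *Marco*, was higher in KpCKO by 1.29 in Con (adjusted p = 0.00772), 1.35 in M1 (0.00301) and 1.68 in M2 (0.0036). *Mrc1*, the mannose receptor, was lower, at -1.32 in Con (adjusted p = 0.00774) and -1.28 in M1 (0.00377). Its mean was lower in M2 too, at 4.52 in KpCKO and 5.44 in WT.

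In WT M1, 4 of the 14 rose and 3 fell, no larger a share than the 63.2% over all genes, with a list median of 0.00 against 0.13 for all genes. *Cxcl16*, a membrane-bound chemokine that binds oxidized LDL, rose by 2.40 on the log2 scale (adjusted p = 2.82e-05) and *Scarf1* by 2.04 (9.29e-05). *Colec12* fell by 2.27 (adjusted p = 2.35e-05), and *Lrp1*, a large endocytic receptor, changed by -1.74 (3.57e-05). *Megf10* was not well above background on either WT M1 array and was at least 3.23-fold lower than in WT Con, where the bound sets the WT Con mean against the lowest signal well above background in M1, or the probe's own signal if higher (limma adjusted p = 0.00014). In WT M2, where 16.8% of all genes were called, 1 rose and 2 fell: *Mrc1* rose by 3.47 (adjusted p = 0.000115), *Colec12* fell by 1.42 (0.00194) and *Lrp1* fell by 0.57 (0.0215).

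**Figure D5:**
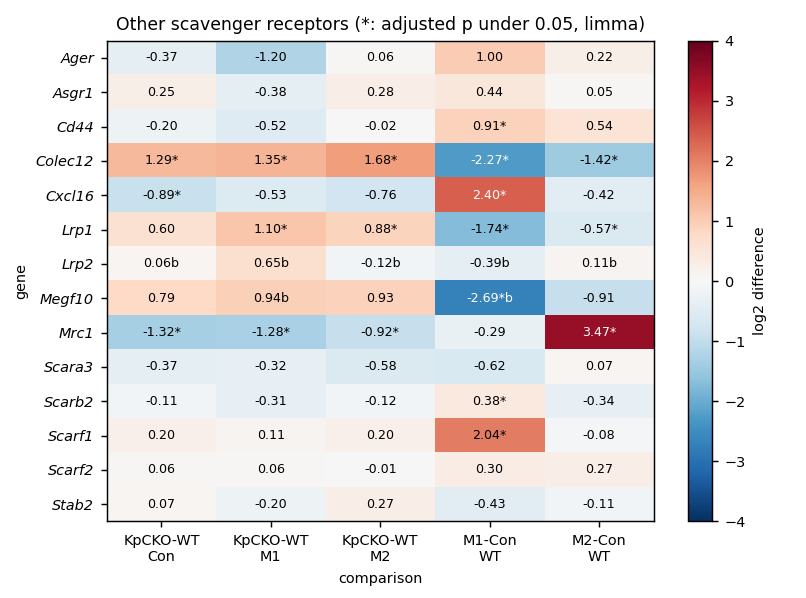
Log2 difference (colour and number) of the 14 other scavenger receptors tested (y axis) in 5 comparisons (x axis: KpCKO less WT in Con, M1 and M2, then M1 and M2 less Con in WT). An asterisk marks an adjusted p under 0.05, and b a comparison with at least 1 group at background, where the number is not a measured difference; *Colec12* is higher in KpCKO in all 3 columns and *Mrc1* lower.

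A list of 30 ligands, partners and lipid handling genes, from thrombospondin and Toll-like receptors to cholesterol transporters, had 28 genes tested. None was called between genotypes in Con or M2 by limma (7 and 4 had an unadjusted p under 0.05), and in M1 4 were higher and 1 lower in KpCKO, a share near the 16% of all genes. *Lipa*, the lysosomal acid lipase that frees cholesterol from endocytosed lipoproteins, was higher by 2.24 in KpCKO M1 (adjusted p = 0.00839; 1.69 in culture 1 and 2.78 in culture 2). *Pparg*, the nuclear receptor known to activate *Cd36* transcription, differed between genotypes by -0.36 in Con, 0.18 in M1 and 0.10 in M2, none of them called (adjusted p = 0.519, 0.561 and 0.901). In WT M1, 8 of the 28 rose and 10 fell, again near the share over all genes (63.2%). Among those that fell were *Pparg* at -4.86 (adjusted p = 6.42e-06), its partner *Rxra* at -3.36 (5.63e-05), *Fabp4*, a fatty acid carrier, at -3.19 (0.000267) and *Abca1*, a cholesterol exporter, at -2.63 (0.00111). *Tlr6*, which signals together with CD36, rose by 2.83 (adjusted p = 1.01e-05). *Lipa* changed by -2.26 (0.000831), and *Npc1*, which moves cholesterol out of lysosomes, by -1.97 (6.49e-05). In WT M2, 2 rose and 4 fell, where 16.8% of all genes were called, with *Thbs1*, a CD36 ligand, at -1.99 (0.0338) and *Abca1* at -1.57 (0.0396).

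Over the 12 arrays, the 3 named genes whose levels ran most like those of each receptor had Pearson's r of 0.94 to 0.99 among 14465 genes, as a description over arrays that share mice, cultures and slides. For *Marco* they were *Acot7*, *Exoc3l4* and *Plod3*, and for *Cd36* they were *Olfr430*, *Dap* and *Cd5l*. For *Msr1* they were *Hnrnpa3*, *Kdr* and *Efcab14*, and for *Scarb1* they were *Khk*, *Rdm1* and *Cnpy2*. For *Olr1* they were *F10*, *Plekho2* and *Csnk2b*, for *Stab1* *Myoz1*, *Pde3b* and *Gpr34*, and for *Cd163* *Zfp322a*, *Zhx1* and *Tmem203*. Of these 21 genes, 5 were again among the top 3 by Spearman's rho and 3 by r over the 6 group means.

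In order of group means, *Cd36* and *Scarb1* were highest in KpCKO Con and lowest in WT M1. *Msr1* was highest in WT M1 and lowest in KpCKO M2, and *Olr1* highest in KpCKO M1 and lowest in WT Con. *Stab1* and *Cd163* were highest in WT Con and lowest in KpCKO M1. Several of these places were shared within the spread: the arrays of KpCKO Con and KpCKO M2 overlapped for *Cd36* and *Scarb1*, those of the 2 M1 groups for *Olr1* and those of KpCKO M1 and KpCKO M2 for *Stab1*. For *Cd163* the 2 M1 groups overlapped and each had an array not well above background, so that they have no order. *Marco* was lowest in WT M2, and its 2 M1 groups did not differ beyond their spread, with WT M1 at 7.83 ± 0.75 (SD, n = 2) and KpCKO M1 at 7.66 ± 0.71. Quantile normalization put KpCKO M1 above WT M1 for *Marco* and gave the other 6 receptors the same highest and lowest group means.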

How the data were processed

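RNA of 12 BMDM samples (2 cultures of 6 groups) was hybridised to 1-colour Agilent arrays. The authors deposited, per the file headers, Agilent Feature Extraction 10.7.3.1 output with the processed signal intensity of 43379 spots per array, not scaled between arrays, and the spot and background median intensity. They also deposited a matrix of log2 values, which equal log2 intensities less the array's 75th percentile, centred on each probe's median. From the intensities, control and outlier spots were left out, spots averaged per probe, and log2 values set relative to the 75th percentile. Probes were named by accession through RefSeq (GRCm38.p6, names and promoters only): 26695 of 41174 matched. The brightest probe stood for a gene. Genes were kept where the 2 arrays of some group both had a spot well above background, 22373 in all. limma 3.58.1 (R 4.3.3) was fitted with group and culture, and p-values were adjusted over all genes tested. A simulated table with known changes was used to test the code. Culture was a block because the labels' design pairs a WT and a KpCKO mouse in each culture. Deviations from group means correlated at 0.16 to 0.60 (median 0.34) in the 15 pairs of groups. Pairs of the same genotype share a mouse as well as a culture, so these correlations are not of culture alone. The error of the genotype differences likewise rests on repeated arrays of the same mice. Each group holds 2 arrays, which limits the precision. The members, lists and tests were chosen with earlier results of these data known. Named from the lists were genes called and over 2-fold in both cultures, at most 8 per list and comparison, and the 3 genes most like each member; *Lrp1* in M2, *Kdr* and *Pf4* were named after their values were seen. Some genes of the lists are not reported here by name. Alternatives were other scalings, background corrections, filters, probes, blocks, variances, samples and the methods' t-test.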

Additional observations from a re-analysis of the deposited data

Results flagged for a closer look

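The genotype difference of *Marco* was above 0 in Con and M2 and slightly below 0 in M1, in both cultures; under quantile normalization the M1 mean was above 0 too (0.0858), so that an opposite sign in M1 is not established. The genotype difference in the M1 response was -2.11 on the log2 scale, since KpCKO was higher in Con in each culture (1.88 and 2.01) and lower in M1 in each (-0.14 and -0.20). The genotype difference in M1 less that in M2 was -2.72, with M2 values of 2.15 and 2.95. The differences themselves did not pass limma's interaction test (adjusted p = 0.106 and 0.0664). The 95% interval of the M1 difference, from -0.79 to 0.45 around a mean of -0.17, includes 0.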

How the results depend on the processing

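Of 45 receptor values followed over the alternatives, 619 alternative values kept their direction and their side of the threshold, 89 fell short of the threshold, 18 passed it and 12 changed sign, all of the last in values that were not called. The cause of these changes was not tested. Without the culture block, which is the replicate block, 0 of the 7 receptors were called between genotypes in Con and 0 in M2 (3 and 2 with it). With only the groups compared in the fit, which leaves fewer samples, 0 were called in Con, M1 and M2. By the methods' t-test adjusted over all genes, 0 were called between genotypes in Con, M1 and M2, 1 in M1 against Con in WT (7 by limma), 0 in M2 against Con in WT, and 0 in M1 against Con in KpCKO (6 by limma). Unadjusted, that t-test called 2 receptors in M1 against Con in KpCKO and 1 in M2 against Con in KpCKO. In M2 against Con in WT, normexp and no filter each called 1 receptor in place of 2. With trended and robust variances, *Marco* was called in the genotype difference in the M1 response (1 receptor, adjusted p = 0.0497) and in M1 less M2 (1, 0.0253), and also in the latter with the filter on all 12 arrays (1, 0.036). Leaving out each array in turn gave 1 called receptor between genotypes in Con, 1 to 3 in M1 and 1 to 2 in M2, then 6 to 7 for M1 in WT, 0 to 1 for M2 in WT, 4 to 6 for M1 in KpCKO and 0 for M2 in KpCKO, and 0 to 1 for M1 less M2. Values that changed sign were *Marco* in M1 under quantile normalization (0.0858), *Scarb1* in WT M2 under quantile normalization (-0.0531) and normexp (-0.0756), and, with an array left out, *Olr1* between genotypes in M1 (-0.90 to 1.45) and M2 (-0.12 to 1.18) and, in WT M2, *Cd36* (-0.13 to 0.10), *Scarb1* (-0.15 to 0.17) and *Cd163* (-0.82 to 0.20). Of the 21 genes of like pattern, Spearman's rho kept 5 and group means 3. Over all genes, 497 were called between genotypes in Con (0 to 702 over the alternatives other than the t-test and left-out arrays), 3579 in M1 (0 to 4355) and 431 in M2 (0 to 582). With an array of the groups compared left out, the counts were 96 to 170, 836 to 3632 and 67 to 140, which also lowers the shares of all genes called in Con and M2. In M1 1660 of them were higher and 1919 lower, against 2029 and 1352 under quantile normalization. With normexp the split was 132 higher and 118 lower in M2 (287 and 144 in the main setting), and 1138 and 719 for M2 in WT (1929 and 1835). The slide as a random block could not be fitted, since each slide holds 1 stimulus. Low signals limit *Olr1* in Con and *Cd163* in M1, where the background correction moved the differences most.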
